A study of Brachypodium distachyon with 8 samples.

Results

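The loci described here were 2553 3' UTRs of the grass Brachypodium distachyon at which small RNA reads of 24 nt made up 70% or more of all reads. They were chosen from the measured read lengths. Counts of 8 leaf libraries were summed per transcript identifier and read length, identifiers with fewer than 40 reads and the 100 identifiers with most reads were left out, and those with a pooled 24 nt share of 70% or more were kept. The 2553 identifiers came from 2284 genes and were 14.03% of the 18191 identifiers with 40 or more reads, which are called the tested loci below. In all, 30815 identifiers had at least 1 read. Because the pooled 24 nt share chose the loci, that share and what follows from it are given as a description, without a test.

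In plants, small RNAs of 24 nt belong for the most part to RNA-directed DNA methylation, as short interfering RNAs. RNA polymerase IV makes their precursors, the RNA polymerase RDR2 copies these into double strands, the dicer DCL3 cuts them, and Argonaute proteins of the AGO4 group carry the products to matching loci, many of them transposons and other repeats. Small RNAs of 21 nt are a different class, to which most microRNAs belong, and reads of many lengths at a 3' UTR can be fragments of the transcript itself.

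The study profiled leaf small RNAs of Bd21, a diploid inbred line, to see how they change under abiotic stress. All plants were grown at 22 °C, and there was 1 library for each condition. Stressed plants had their soil saturated with 300 mM NaCl and were left for 48 h (salt), were kept at 4 °C for 6 h or 24 h (cold), were kept in air at 42 °C for 1 h or 3 h (air heat), or were immersed in water at 42 °C for 1 h or 3 h (water heat). The eighth library came from unstressed plants. The sources used here give neither the plants' age nor how many plants gave each library. With 1 library per condition, every difference below is between libraries, has no replicate check and carries no p-value. The 95% intervals reflect counting error and nothing else.

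The deposited counts are reads of 15 to 41 nt per 3' UTR identifier and length. Total reads were between 1730029 under salt and 4622303 in air heat at 1 h. Since reads outside 3' UTRs are not among them, these totals are not sequencing depths. No identifier could be given a gene name, since 0 of the 24118 genes in the files matched the 31335 genes in RefSeq's table (assembly Brachypodium_distachyon_v3.0) and no deposited file holds names. Roles of the genes are therefore not described. Identifiers of a gene can hold the same reads: 256 of the 2553 loci fell into 118 groups with identical counts in every library and length, each within 1 gene. Of the 204 genes that had a locus in the set and more than 1 tested identifier, 171 had all of their tested identifiers in it and 33 did not.

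The loci were read more often than the median tested locus. Their pooled reads had a median of 327, with quartiles of 140 and 823 and a range of 40 to 6027, against a median of 151 over all tested loci. The loci with 24 nt as their leading length class but a share under 70%, 4860 identifiers that are the nearest class and are called mixed loci below, had a median of 240. Reads were present in all 8 libraries at 2246 of the 2553 loci, in 7 libraries at 232 and in 6 or fewer at 75, with 5 libraries as the fewest. The loci were thus mostly detected under every condition, and absence from a library was rare.

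None of the loci held 24 nt reads alone, and the share was a matter of degree. The median pooled 24 nt share was 76.5% and the highest was 97.1%. The share lay from 70% to under 75% at 962 loci, from 75% to under 80% at 901, from 80% to under 85% at 509, from 85% to under 90% at 150, and at 90% or more at 31. The threshold cut through a continuous range. Just inside it were Bradi5g09820.1 with 350 of 500 reads and Bradi3g17850.1 with 210 of 300 reads, among 16 loci at exactly 70%. Just outside it were Bradi1g41670.2 with 1660 of 2372 reads, a share of 69.98%, and Bradi1g35000.1 with 317 of 453 reads. There were 409 loci between 70% and 72%, and 363 identifiers outside the class between 68% and 70%.

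The reads of other lengths were led by 23 nt, the next shorter length. It was the second commonest length at 2102 of the 2553 loci, against 289 with 21 nt, 75 with 15 nt, 29 with 16 nt, 27 with 25 nt and 31 with another length. Over loci, the 23 nt share of pooled reads had a median of 9.02%, and 10% of loci lay below 4.65% and 10% above 13.6%. The 21 nt share had a median of 3.98% and did not exceed 17.1% at any of the loci. Reads of 22 nt and 25 nt were rarer, with medians of 1.60% and 1.52%. The loci therefore had a main peak at 24 nt with a shoulder at 23 nt, and 21 nt was a separate, smaller peak.

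Summed over the 2553 loci, 24 nt was by far the commonest length in every library. Its share was 77.5% under salt, 77.8% and 77.6% in cold (6 h and 24 h), 76.8% and 78.7% in air heat (1 h and 3 h), 78.3% and 75.8% in water heat (1 h and 3 h), and 69.97% without stress (95% interval 69.6% to 70.4%). The 7 stressed libraries thus lay between 75.8% and 78.7%, all above the unstressed library, and differed less from each other than from it. The loci held 82911 reads in water heat at 1 h to 407880 reads in cold at 6 h among the stressed libraries. In the unstressed library, the shallowest for them, they held 47461 reads, 33207 of them of 24 nt.

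The unstressed library had the largest share of 21 nt reads at these loci. The 21 nt share was 4.31% under salt, 4.52% and 4.56% in cold (6 h and 24 h), 4.31% and 3.94% in air heat (1 h and 3 h), 4.62% and 5.50% in water heat (1 h and 3 h), and 8.15% without stress (7.91% to 8.40%). The share of 15 to 19 nt was 3.08% to 4.60% in the 7 stressed libraries and 5.14% without stress, and the share of 23 nt was 7.10% to 9.98% in the stressed libraries and 10.5% without stress. Both were highest without stress. A larger 21 nt share without stress was not particular to the class. At mixed loci it was 9.10% to 12.3% in the stressed libraries and 18.7% without stress, and at the 10678 tested loci outside both classes and the 100 most read it was 24.99% in cold at 6 h, 11.9% to 17.6% in the other 6 stressed libraries and 24.4% without stress. The 21 nt reads of the class were spread over many loci: the 10 loci with most of them held 6.16% to 13.1% of the 21 nt reads in the stressed libraries and 8.37% in the unstressed one. At the median locus with 20 or more reads in a library, the 21 nt share was 2.63% to 4.17% in the stressed libraries and 6.45% without stress.

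**Figure D1:**
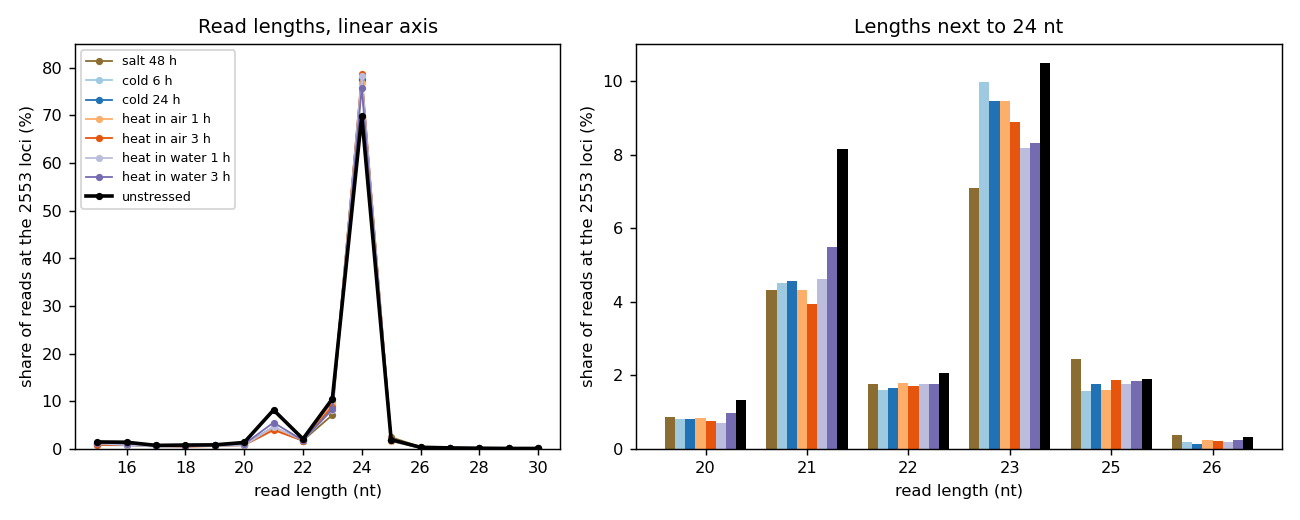
Share of the summed reads at the 2553 loci by read length, 1 line or bar colour per library; the left plot shows 15 to 30 nt and the right plot the lengths around 24 nt, both on linear axes in percent. The 24 nt peak is at 75.8% to 78.7% in the 7 stressed libraries and at 69.97% in the unstressed one, which has the highest bars at 21 nt (8.15%) and 23 nt (10.5%).

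Salt had the least 23 nt and the most long reads. Its 23 nt share was 7.10%, and it had 0.0916 reads of 23 nt for each read of 24 nt, against 0.105 to 0.128 in the cold and heat libraries and 0.150 without stress. Its 25 nt share was 2.43%, against 1.58% to 1.87% in the cold and heat libraries and 1.91% without stress. Reads of 26 to 41 nt made up 2.13% under salt, 0.523% to 1.18% in cold and heat, and 0.948% without stress. The labels' protocols name 2 library kits and do not say which library was made with which, so a difference of kit cannot be told apart from a difference of condition in these shares.

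A lower 24 nt share without stress was also present at mixed loci, but not at the 10678 tested loci outside both classes and the 100 most read. At mixed loci the share was 50.4% to 61.2% in the 7 stressed libraries and 47.6% without stress. At the 10678 other loci it was 10.9% under salt, 10.6% and 11.5% in air heat (1 h and 3 h) and 9.82% in water heat at 3 h, against 12.2% without stress. It was 13.4% to 17.9% in the other 3 libraries. The order of the libraries by 24 nt share thus depended on the class of locus.

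A measure that the choice did not use was obtained by choosing the loci on 7 libraries and reading the 24 nt share in the one left out. This gave 2406 to 2585 loci for each left-out library. Their summed 24 nt share in it was 76.5% under salt, 74.3% and 76.4% in cold (6 h and 24 h), 73.8% and 77.3% in air heat (1 h and 3 h), 77.6% and 74.7% in water heat (1 h and 3 h), and 69.4% without stress (68.9% to 69.8%). All 7 stressed libraries were again above the unstressed one. Tested loci that were not chosen had 24.8% to 42.6% in the stressed libraries and 28.6% without stress. In each of the 8 libraries, loci chosen for a high 24 nt share in the other 7 were thus above the loci that were not chosen.

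Locus by locus, the left-out shares were wide. Among loci with 20 or more reads in the left-out library, the median share was 77.4% under salt, 75% and 76.2% in cold (6 h and 24 h), 73.9% and 77.4% in air heat (1 h and 3 h), 78.9% and 75.5% in water heat (1 h and 3 h), and 70.4% without stress. The part of these loci that reached 70% in the left-out library was 65.7% to 77.4% in the 7 stressed libraries and 51.4% without stress. The lowest 10% of the loci were below 54.2% to 62.7% in the stressed libraries and below 45.9% in the unstressed one. Depth differed between these sets, with 1074 to 2152 such loci in the stressed libraries and 697 in the unstressed one, and its part in the spread was not tested.

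**Figure D2:**
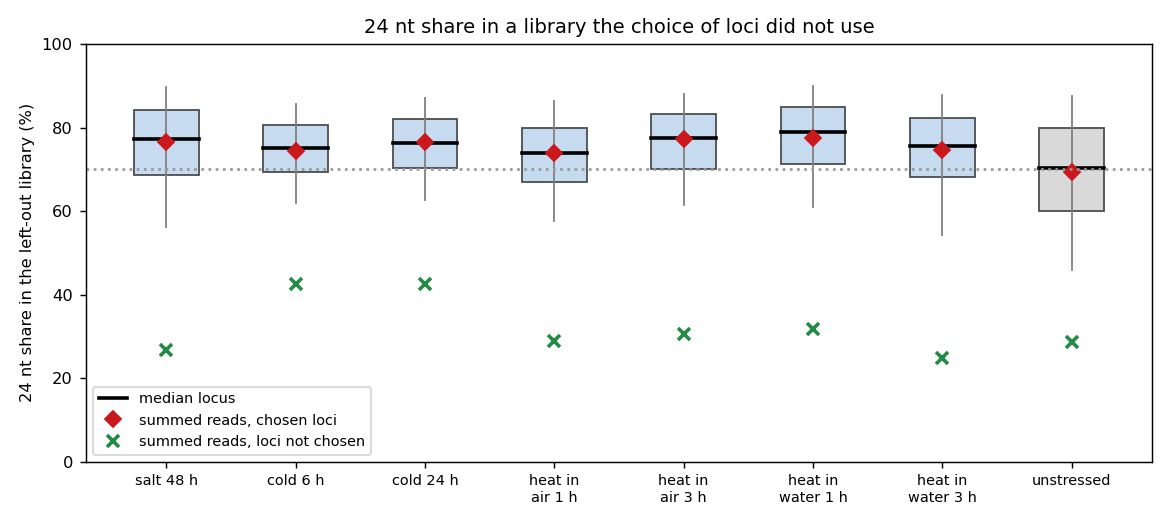
The 24 nt share in percent in each library, for loci chosen on the other 7 libraries: boxes span the quartiles over loci with 20 or more reads, lines the 10th to 90th percentile, black bars the median, diamonds the summed reads, crosses the summed reads of loci not chosen, and the dotted line the 70% threshold. The diamonds are at 73.8% to 77.6% in stressed libraries and at 69.4% in the unstressed library; the crosses are at 24.8% to 42.6%.

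A minority of loci kept 70% in every library. Of the 629 loci with 20 or more reads in all 8 libraries, 142 were at 70% or more in all 8, 159 in 7, 277 in 4 to 6 and 51 in fewer than 4. Over the 2199 loci with 20 or more reads in at least 2 libraries, the range between the highest and the lowest share had a median of 19.4 percentage points. At 182 of them, or 8.28%, from 132 genes, the range was 50 points or more. The same range was reached by 653 of 3844 mixed loci, or 16.99%. Among the 182, the highest share was most often in cold at 6 h (45 loci) or 1 h of air heat (37), and the lowest most often in water heat at 3 h (47 of the 168 with 20 or more reads there) or without stress (36 of 110). Per locus with 20 or more reads in the library, that was 28.0% in water heat at 3 h and 32.7% without stress. Shares on as few as 20 reads have a wide counting error, and 962 of the 2553 loci had a pooled share under 75%. Counting error alone can thus take a locus below 70% in a library, and its part in these counts was not tested. A pooled share of 70% covered some loci, such as the 182, with far lower 24 nt shares in some libraries than in others.

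The part of the 3' UTR reads that these loci took was lowest without stress when counted over all of those reads, and not when the 100 most read loci were left out. Over all 3' UTR reads it was 6.73% under salt, 9.76% and 14.02% in cold (6 h and 24 h), 5.05% and 7.94% in air heat (1 h and 3 h), 4.27% and 4.57% in water heat (1 h and 3 h), and 1.303% without stress. Outside the 100 most read loci it was 19.3% under salt, 30.7% and 29.2% in cold (6 h and 24 h), 23.2% and 24.9% in air heat (1 h and 3 h), 22.4% and 19.3% in water heat (1 h and 3 h), and 24.1% without stress. Both cold libraries were at the top on this second count, and salt and 3 h of water heat were at the bottom. Of the 24 nt reads outside the 100 most read loci, the 2553 loci held 42.1% to 47.1% in the stressed libraries and 44.1% without stress.

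Levels were compared after TMM scaling, the trimmed mean of log ratios between libraries, which sets the trimmed average change over the tested loci to none. The summed scaled reads of the 2553 loci were 0.761 times the unstressed level under salt (95% interval 0.753 to 0.770), 1.28 times in cold at 6 h (1.27 to 1.29) and 1.17 times after 24 h (1.16 to 1.18). They were 0.971 times (0.961 to 0.980) and 1.03 times (1.02 to 1.04) in air heat (1 h and 3 h), and 0.921 times (0.911 to 0.932) and 0.782 times (0.774 to 0.790) in water heat (1 h and 3 h). Cold was above the unstressed library at both times, water heat and salt were below it, and air heat was close to it on either side. Mixed loci were at 1.05 and 1.03 times in cold and 0.815 times under salt, and the 10678 loci outside both classes and the 100 most read at 0.795 and 0.779 times in cold and 1.14 times under salt. In water heat mixed loci were likewise below the unstressed level, at 0.915 and 0.801 times, and in air heat they were at 0.878 and 0.860 times. The 10678 other loci were at 1.10 and 1.21 times in water heat and at 1.13 and 1.08 times in air heat.

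The direction of these sums depended on the scaling. With total reads in place of TMM, all 7 stressed libraries were above the unstressed one, from 3.28 times in water heat at 1 h to 10.8 times in cold at 24 h. Many tested loci are led by 24 nt themselves and so enter TMM. When TMM was computed over loci not led by 24 nt, an alternative added after the data were seen, the sums were 0.604 times under salt, 1.71 and 1.54 times in cold (6 h and 24 h), 0.928 and 1.04 times in air heat (1 h and 3 h), and 0.879 and 0.665 times in water heat (1 h and 3 h). Under that scaling every one of the 7 sums was on the same side of the unstressed level as under TMM.

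The median locus was on the same side of the unstressed level as the sum, except in air heat at 1 h, where both were close to it. For loci with 20 or more reads in a pair of libraries together, with a locus that had no read on 1 side ranked at that end, the median log2 ratio to the unstressed library was -0.32 under salt (1616 loci), 0.50 and 0.48 in cold (6 h and 24 h; 2289 and 2259 loci), 0.02 and 0.19 in air heat (1 h and 3 h; 2003 and 2145 loci), and -0.05 and -0.16 in water heat (1 h and 3 h; 1418 and 1810 loci). Over all tested loci the same medians were 0.31 under salt, 0.31 and 0.35 in cold, 0.24 and 0.36 in air heat, and 0.08 and 0.29 in water heat. The filter was on unscaled reads, and the TMM size was smallest for the unstressed library. Loci with few reads therefore passed it more easily when high under stress. Of the 18191 tested loci it kept 9170 under salt and 10939 in cold at 6 h. Its part in the distance between the class and the tested loci was not tested. The class was thus above the tested loci in cold and below them under salt and in heat. Mixed loci had medians of -0.06 under salt and 0.30 and 0.34 in cold. In air heat they had 0.06 and 0.07, and in water heat 0.02 and -0.09. Mixed loci were likewise below the tested loci under salt and in heat, but not above them in cold. Another scaling shifts the medians of a comparison alike and leaves their distances as they are. Total scaling put the medians over all tested loci at 1.91 to 3.55. All 7 ratios share the unstressed library, so they are not independent of each other.

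**Figure D3:**
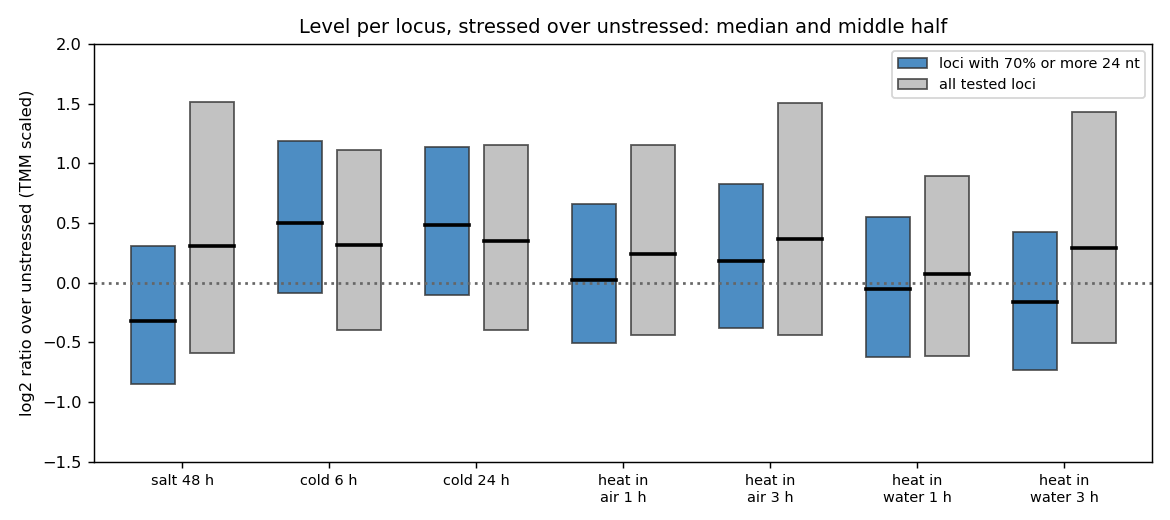
Log2 ratio of TMM-scaled reads per locus, each stressed library over the unstressed one, for the 2553 loci (blue) and all tested loci (grey); boxes span the quartiles and black bars are medians. The blue medians are at 0.50 and 0.48 in cold and at -0.32 under salt, and the grey medians are at 0.08 to 0.36 in all 7 comparisons.

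Cold was also set against heat, where the unstressed library enters only through the TMM scaling. Against the 4 heat libraries summed, the median locus of the class was higher by 0.38 (log2) in cold at 6 h and by 0.39 after 24 h, while the median over all tested loci was -0.15 and -0.11. Mixed loci lay between, with medians of 0.21 and 0.25. Between times the class had medians of 0.02 for cold at 24 h over 6 h, 0.12 for air heat at 3 h over 1 h and -0.11 for water heat at 3 h over 1 h. Total scaling put these at 0.67, 0.68 and 0.22, which turned the direction of the last. The median log2 ratio of water over air was -0.11 at 1 h and -0.38 at 3 h, where all tested loci had medians of -0.04 and 0.03. The class was thus lower in water than in air at both times, and further below it at 3 h.

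A single locus counted as changed if its ratio of scaled reads had a 95% interval entirely beyond 2-fold, in cold and heat at both times. Few of the 2553 loci passed. More reads make narrower intervals, and the class had a median of 327 reads against 151 over all tested loci. How far this shaped the shares of changed loci here and below was not tested. In cold, 39 loci (27 genes) were higher and 21 (18 genes) lower than without stress, 1.53% and 0.823% of the class. Over all tested loci 0.704% were higher and 2.20% lower. Of mixed loci 0.617% were higher and 1.11% lower. The class therefore held, under TMM and with counts as deposited, a larger share of higher loci than the tested loci as a whole and than mixed loci. Its share of lower loci was smaller than over all tested loci, as was that of mixed loci. Under TMM over loci not led by 24 nt, 104 were higher and 14 lower (1.64% and 1.29% of all tested loci), which put 88.1% of the changed loci on the higher side, and not 65%. Under total scaling 2059 were higher and 0 lower (48.9% and 0.0605%). With counts halved, an alternative also added after the data were seen, 13 were higher and 16 lower. Shares over all tested loci were not computed for halved counts, so whether the larger share of higher loci holds there was not tested.

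Both times of air heat were higher than no stress at 14 loci (9 genes) and lower at 20 (19 genes), 0.548% and 0.783% of the class, against 1.70% and 1.56% of all tested loci. In water heat, 2 loci were higher and 39 (36 genes) lower, 0.0783% and 1.53% of the class, against 1.72% and 1.51% of all tested loci. Of mixed loci 0.247% were higher and 1.13% lower in air heat, and 0.226% higher and 1.19% lower in water heat. Under TMM the class thus had few higher loci in either kind of heat, below the share over all tested loci, as did mixed loci. In water the share of lower loci in the class was near the background over all tested loci. Under TMM over loci not led by 24 nt the counts were 14 higher and 20 lower in air (1.67% and 1.59% of all tested loci) and 2 higher and 52 lower in water (1.43% and 1.79%). Total scaling gave 1120 higher and 0 lower in air (34.6% and 0.104% of all tested loci) and 566 higher and 1 lower in water (23.2% and 0.0880%). In air this turned the comparison with the background, since the 1120 were 43.9% of the class; in water the 566 were 22.2%. The higher share of changed loci was 100% and 99.8% there, in place of 41.2% and 4.88%.

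Salt, with a single time, had 16 higher loci (16 genes) and 102 lower ones (92 genes), 0.627% and 4.00% of the class. Of all tested loci 4.20% were higher and 3.45% lower. Of mixed loci 0.967% were higher and 3.13% lower. Higher loci were thus rarer in the class than over the tested loci, as they were among mixed loci. The share of lower loci in the class was close to the background. TMM over loci not led by 24 nt gave 11 higher and 182 lower (2.59% and 5.28% of all tested loci). Total scaling gave 1477 higher and 1 lower (64.6% and 0.143%), with 99.9% of the changed loci higher, and not 13.6%. The 4 lists share the unstressed library, so what they have in common is not given as a result.

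Cold was also set against the 4 heat libraries summed, at both cold times. There 21 loci (17 genes) were higher in cold and 15 (11 genes) lower, 0.823% and 0.588% of the class, against 0.781% and 5.01% of all tested loci. Of mixed loci 0.617% were higher and 0.165% lower. Under TMM the share of higher loci in the class was near the background. Lower loci were rarer in the class than over all tested loci, as they were among mixed loci. TMM over loci not led by 24 nt gave 86 higher and 7 lower (2.19% and 2.80% of all tested loci), and total scaling 110 higher and 4 lower (2.88% and 1.92%). The higher loci were then 3.37% and 4.31% of the class, above the background under both. The higher loci made up 58.3% of the changed ones under TMM, and 92.5% and 96.5% under these other scalings.

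The 2 times of a stress were compared directly. Cold at 24 h was higher than at 6 h at 58 loci and lower at 83, 2.27% and 3.25% of the class, against 2.85% and 2.17% of all tested loci. Air heat at 3 h was higher than at 1 h at 56 loci and lower at 72 (2.19% and 2.82% of the class, against 1.95% and 2.56%). Water heat at 3 h was higher than at 1 h at 32 loci and lower at 83 (1.25% and 3.25% of the class, against 2.11% and 2.13%). Loci changed between times at about the rate of the tested loci, with somewhat more on the lower side for cold and for water. Under total scaling the counts were 126 higher and 57 lower for cold (7.26% and 0.770% of all tested loci), 181 and 51 for air heat (6.22% and 1.15%), and 52 and 60 for water heat (3.91% and 1.37%). The higher share of changed loci was 68.9%, 78.0% and 46.4% in these 3 comparisons under total scaling, in place of 41.1%, 43.75% and 27.8%.

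Water was compared with air at matched times. At 1 h 53 loci were higher in water and 58 lower, 2.08% and 2.27% of the class, against 2.04% and 1.78% of all tested loci. At 3 h 44 were higher in water and 80 lower (1.72% and 3.13% of the class, against 3.09% and 1.89%). The class was near the background at 1 h and leaned to the lower side at 3 h, where all tested loci leaned to the higher side under TMM. Total scaling gave 40 higher and 75 lower at 1 h (1.45% and 2.39% of all tested loci) and 24 higher and 177 lower at 3 h (1.52% and 4.30%, so that all tested loci leaned to the lower side too), which put 34.8% and 11.9% of the changed loci on the higher side, and not 47.7% and 35.5%.

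Where a locus of the class changed between stressed libraries, it was mostly its 24 nt reads that differed. The rule builds part of this in, since the loci were chosen to hold mainly 24 nt reads, so the values are a description. At the 72 loci lower in air heat at 3 h than at 1 h, the summed scaled 24 nt reads were 0.102 times as many at 3 h, while reads of all other lengths were 1.00 times as many. Their 24 nt share was 54.2% at 3 h and 92.1% at 1 h. At the 44 loci higher in water than in air at 3 h, 24 nt reads were 10.2 times as many in water and other reads 0.852 times, with 24 nt shares of 86.6% in water and 35.0% in air. In both lists the 24 nt reads differed about 10-fold and the other reads little.

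The same held, to a smaller degree, for the other lists between stressed libraries. At the 58 loci higher at 24 h than at 6 h of cold, 24 nt reads were 7.64 times and other reads 1.23 times as many, and at the 83 lower loci 0.141 and 0.633 times. At the 58 loci lower in water than in air at 1 h the ratios were 0.155 for 24 nt reads and 1.20 for other reads, so that the other lengths moved the opposite way. Against the unstressed library, the 14 loci higher in air heat had a 24 nt share of 89.9% and 91.6% at 1 h and 3 h and 30.8% without stress (95% interval 22.6% to 40.0%, of 117 reads). The 39 loci higher in cold had 81.8% and 85.4% at 6 h and 24 h and 64.4% without stress. At these 39 loci 24 nt reads were 6.06 and 6.31 times as many in cold, and other reads 2.43 and 1.95 times. At the 14 loci higher in air heat other reads were 1.78 and 1.08 times as many. At the loci lower than without stress, the 24 nt share was also lower under stress. It was 76.4% and 70.2% in cold (6 h and 24 h) at the 21 loci lower there, against 84.2% without stress. The 20 lower in air heat had 72.2% and 69.3% (1 h and 3 h), against 81.6% without stress, and the 39 lower in water heat had 74.3% and 75.6% (1 h and 3 h), against 80.3%. The 102 lower under salt had 75.5% under salt and 78.6% without stress, with ratios of 0.257 for 24 nt reads and 0.305 for other reads. Other reads also fell in the lower lists of cold and heat. Their ratios were 0.307 and 0.366 in cold, 0.305 and 0.328 in air heat, and 0.265 and 0.213 in water heat. The ratios of 24 nt reads in these lists were 0.161 to 0.188.

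**Figure D4:**
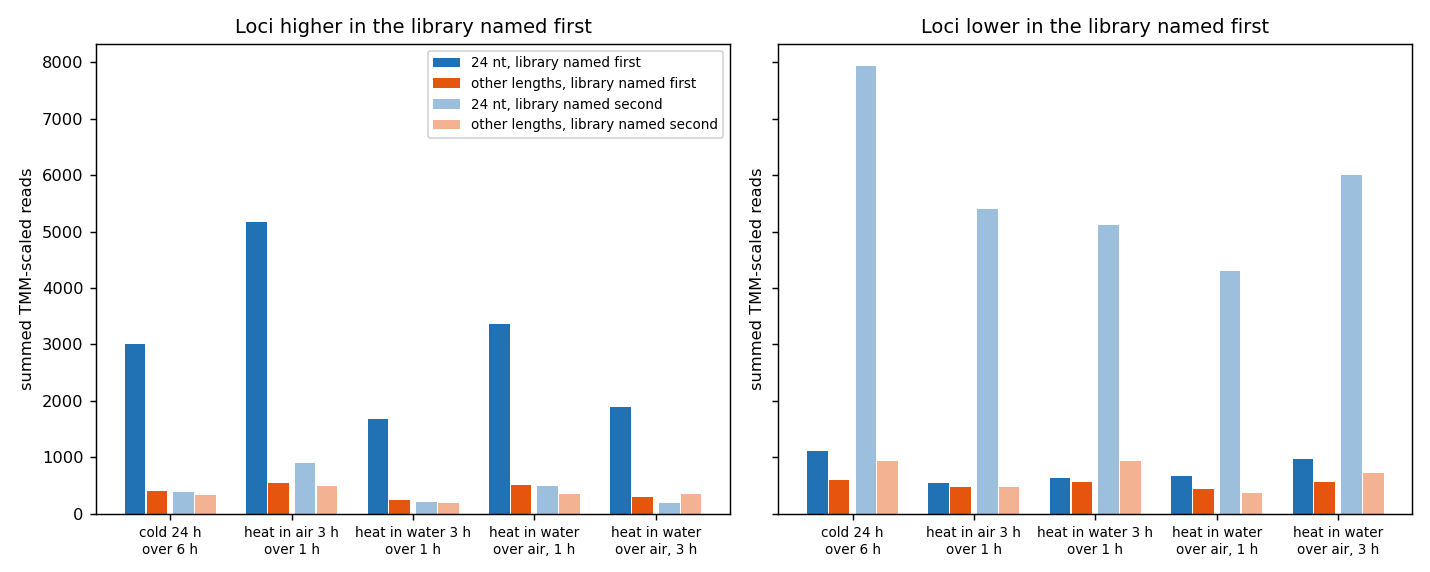
Summed TMM-scaled reads of 24 nt (blue) and of all other lengths (orange) at the loci that were higher (left) or lower (right) in the library named first, with dark bars for the library named first and pale bars for the library named second. The blue bars differ by a factor of 5.72 or more in the left plot, and the orange bars differ by at most 1.49 times there.

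Most of the 10 loci with most reads were highest in cold. Bradi4g15020.1 had scaled reads of 87.2 under salt, 286 and 213 in cold (6 h and 24 h), 182 and 116 in air heat (1 h and 3 h), 109 and 108 in water heat (1 h and 3 h), and 100 without stress. It was 2.86 times the unstressed level in cold at 6 h (2.34 to 3.53) and 0.872 times under salt (0.691 to 1.11). Its level was thus highest in cold, and salt could not be told from the unstressed library. In 8 of the 10 loci the highest scaled level was in a cold library, in 0 it was in heat or salt, and in 2 it was in the unstressed library. The 10 were ranked by unscaled pooled reads, to which the cold libraries gave most, so the pick favours loci high in cold. Other scalings put 7 to 10 of them highest in cold. Of all 2553 loci 54.8% had their highest scaled level in a cold library, against 22.8% of all tested loci. Bradi1g12190.1, Bradi4g30750.1, Bradi4g13870.1 and Bradi4g37100.1 were 1.54 to 2.23 times the unstressed level in cold at 6 h, while Bradi1g43270.1, Bradi3g26650.1 and Bradi1g42890.1 were 0.923 to 1.09 times, with intervals that included no change.

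Bradi3g56590.1, the most read of the class, went the other way. It had 666 reads under salt, 777 and 1315 in cold (6 h and 24 h), 839 and 1027 in air heat (1 h and 3 h), 368 and 481 in water heat (1 h and 3 h), and 554 without stress. After scaling all 7 stressed libraries were below the unstressed one, from 0.204 times in water heat at 3 h (0.180 to 0.231) to 0.377 times in cold at 24 h (0.341 to 0.417). Its 24 nt share was 72.5% to 81.8% in the stressed libraries and 75.6% without stress. The length make-up therefore did not separate the libraries in which its level differed.

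Bradi1g62460.1, another of the 10, was low and short of 24 nt reads in the unstressed library alone. It had 360 reads under salt, 1390 and 1264 in cold (6 h and 24 h), 832 and 1242 in air heat (1 h and 3 h), 240 and 568 in water heat (1 h and 3 h), and 24 without stress. It was 4.65 to 8.63 times the unstressed level in the 7 stressed libraries. The 24 nt share was 84.0% to 93.9% in them and 25% without stress. All its counts per library and length were even, so each of its reads may have been counted more than once and its intervals may be too narrow.

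The loci farthest from no change in cold differed in read length as well as in level. The choice by pooled 24 nt share builds part of this in. Libraries with most of a locus's reads weigh most in that share, so they tend to be rich in 24 nt reads. The same limit applies to the other single loci named above and below, so their shares by library are a description. Bradi1g44100.1 had 399 and 918 reads in cold (6 h and 24 h) and 3 without stress, which was 19.8 times (6.73 to 96.5) and 48.5 times (16.6 to 236) the scaled level. Its 24 nt share was 88.0% and 89.5% in cold and 91.4% in water heat at 3 h, and 38.1% or less in the other 5 libraries. Bradi4g06390.1 had 1508 and 1375 reads under cold against 22 without stress, 10.2 times (6.72 to 16.3) and 9.91 times (6.52 to 15.9). It was also high in air heat at 1 h with 912 reads and in water heat at 3 h with 862, and low in air heat at 3 h with 67 and 1 h of water heat with 96. The 24 nt share was 89.3% to 94.96% in the 4 high libraries, 10.4% and 14.9% in the 2 low heat libraries, 60.1% under salt and 27.3% without stress. Of the 77 non-zero counts of Bradi4g06390.1 per library and length, 5 were odd. Its reads may therefore also have been counted more than once, and its intervals may be too narrow.

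On the lower side, Bradi3g49450.1 and Bradi5g04770.1 were farthest from no change in cold. Bradi3g49450.1 had 40 and 134 reads in cold (6 h and 24 h) and 286 without stress, 48.0-fold (34.4 to 68.6) and 13.5-fold (10.9 to 16.6) lower in cold. Bradi5g04770.1 had 39 and 141 reads under cold against 258 without stress, 44.4-fold (31.6 to 63.9) and 11.5-fold (9.36 to 14.3) lower. At both loci the 24 nt share was 21.6% to 45% in cold and 92.2% or more without stress. In air heat they had scaled levels of 13.6 and 11.8 reads at 1 h (69 and 60 unscaled) and 145 and 147 at 3 h (945 and 961 unscaled), all below the 286 and 258 without stress. Their identifiers place them on chromosomes 3 and 5, and by their counts per library and length at most 75.3% of the reads of Bradi5g04770.1 could also be counted at Bradi3g49450.1. Since Bradi3g49450.1 had fewer pooled reads (1989 against 2402), the part of its own reads that could be shared is larger. The loci may therefore not be separate cases.

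In air heat, Bradi2g23490.1 had 273 and 295 reads at 1 h and 3 h and 2 without stress, 26.9 times (7.38 to 223) and 22.6 times (6.20 to 187). Bradi1g25170.1 had 647 and 564 reads and 8 without stress, 16.0 times (8.05 to 37.1) and 10.8 times (5.44 to 25.1). In water heat Bradi2g23490.1 had 14 and 36 reads at 1 h and 3 h and Bradi1g25170.1 had 66 and 84. After scaling both were lower in water than in air at either time. Bradi2g23490.1 had its highest count, 521, in cold at 24 h. On the lower side Bradi1g62410.3 had 84 and 285 reads and 496 without stress, 29.9-fold (23.7 to 38.2) and 11.4-fold (9.81 to 13.2) lower, and Bradi4g40970.1 had 35 and 46 reads and 73 without stress, 10.6-fold (6.98 to 16.3) and 10.4-fold (7.07 to 15.3) lower.

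In water heat the 2 higher loci were Bradi1g62460.1, at 5.27 times (3.46 to 8.39) and 5.56 times (3.70 to 8.75) the unstressed level at 1 h and 3 h, and Bradi1g44100.1, at 10.5 times (3.44 to 52.6) and 14.5 times (4.88 to 70.9). Among the lower loci, Bradi4g44350.1 had 10 and 12 reads at 1 h and 3 h and 119 without stress, 22.6-fold (11.9 to 48.27) and 42.2-fold (23.3 to 84.0) lower. Bradi1g71830.1 had 8 and 41 reads and 94 without stress, 22.3-fold (10.9 to 53.1) and 9.76-fold (6.70 to 14.5) lower. Bradi4g44350.1 was at 18 reads or fewer in 5 stressed libraries, at 71 in cold at 6 h and at 346 in air heat at 1 h. Its 24 nt share was 97.4% in air heat at 1 h and 98.3% without stress, and 58.3% or less in the other 6 libraries.

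Under salt Bradi4g41540.1 had 291 reads and 6 without stress, 15.0 times the unstressed level (6.83 to 41.3), and Bradi2g48060.1 had 169 reads and 3 without stress, 17.5 times (5.88 to 85.6). Bradi4g41540.1 was also high in cold at 6 h, with 399 reads, and in air heat at 3 h, with 242, and its 24 nt share was 84.3% to 90.5% in these 3 libraries and 5.56% in air heat at 1 h, on 36 reads. Lower were Bradi4g44350.1, with 10 reads and 119 without stress, 38.4-fold (20.1 to 82.1), and Bradi2g47620.1, with 44 reads and 230 without stress, 16.9-fold (12.2 to 23.8). The 24 nt share of Bradi2g47620.1 was 18.2% under salt and 81.3% without stress.

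In cold over heat, Bradi3g47910.1 had 1205 and 387 reads in cold (6 h and 24 h) and 30 to 47 reads in each heat library, 19.3 times (16.4 to 22.9) and 6.61 times (5.49 to 7.98) the summed heat level. Bradi2g12050.1 had 406 and 514 reads in cold and 8 to 126 in the heat libraries, 5.77 times (4.84 to 6.91) and 7.78 times (6.57 to 9.26). Both had at most 48 reads under salt and at most 8 without stress, so their highest scaled levels among the 8 libraries were the cold ones. Lower in cold were Bradi2g11090.1, 6.22-fold (4.69 to 8.42) and 4.38-fold (3.42 to 5.69), whose 625 reads in air heat at 3 h made up most of its heat reads, and Bradi1g23900.1, 4.98-fold (3.28 to 7.89) and 8.01-fold (4.71 to 14.8). Bradi1g23900.1 had a 24 nt share of 92.1% under salt, 92.9% in air heat at 1 h and 96.7% in water heat at 1 h, and of 16.7% or less in the other 5 libraries.

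Total scaling raised the ratios of the named loci in all of these comparisons, so only calls on the lower side could be lost under it. Under total scaling Bradi3g49450.1 and Bradi5g04770.1 in cold, Bradi1g62410.3 and Bradi4g40970.1 in air heat, Bradi1g71830.1 in water heat, Bradi2g47620.1 under salt and Bradi2g11090.1 in cold over heat kept their direction but no longer passed as lower. Their log2 ratios were then -0.33 to -1.31 at the weaker time. With the median of ratios, and with TMM over loci not led by 24 nt, all named lower loci still passed. In 24 nt reads alone, Bradi1g44100.1 no longer passed as higher in water heat.

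**Figure D5:**
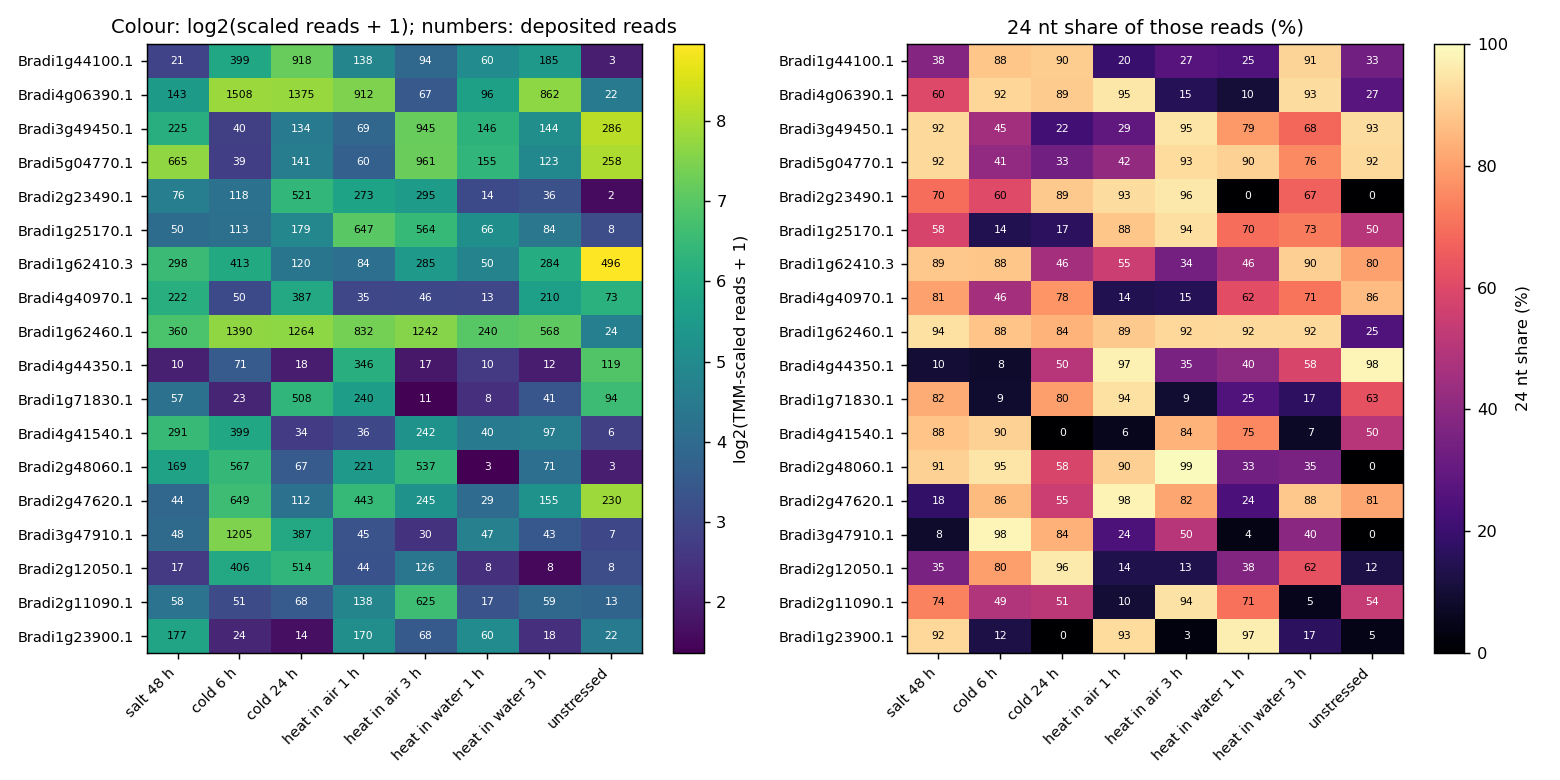
The 18 loci farthest from no change in the comparisons with the unstressed library and of cold with heat, by library. Colour in the left plot is log2 of TMM-scaled reads plus 1, with the deposited reads printed in each cell, and the right plot gives the 24 nt share of those reads in percent, with bright cells for high shares; for example, Bradi3g47910.1 has 1205 reads with a 24 nt share of 98.3% in cold at 6 h, and 7 reads without stress.

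Loci with most of their reads in 1 library were a small part of the class. At 36 of the 2553 loci (1.41%) 1 library held 50% or more of the scaled reads, against 334 of all tested loci (1.84%). That library was cold at 6 h for 16 loci, cold at 24 h for 8, air heat at 1 h for 5, water heat at 1 h for 3, salt and air heat at 3 h for 1 each, and the unstressed library for 2. At the median locus of the class the leading library held 19.9% of scaled reads, against 23.5% over all tested loci. Mixed loci were close to the class, at 20.1%.

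By the chromosome number in their identifiers, the loci were unevenly spread. They were 12.5% of the tested loci of chromosome 1, 13.6% of chromosome 2, 12.4% of chromosome 3, 18.9% of chromosome 4 and 16.3% of chromosome 5. Within chromosomes, cut into 10 parts of the gene numbering, the share was lowest at 6.82% in the last part of chromosome 3 and highest at 30.5% in the third part of chromosome 4. On chromosome 1 the first part held 7.66% and the fourth 17.3%. The gene numbered next was also in the class for 303 of 1187 genes of the class whose next gene was tested (25.5%), against 1205 of 7004 such genes among all tested (17.2%). Coordinates were not used here, so neighbours are in numbering, and 6 of the neighbouring pairs had counts of which 80% or more could be the same reads.

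The counts of many loci were even numbers throughout, which bears on the intervals. Of the 2553 loci 245 (9.60%) had only even counts in every library and length, against 700 of the 15538 tested loci outside the class and the 100 most read (4.51%). The median locus of the class had odd numbers in 53.5% of its non-zero counts, against 36.25% over all tested loci. Where each read was counted more than once, the intervals above are too narrow, and the closing section gives calls made on counts divided by 2.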

How the data were processed

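Each library has 1 deposited file of whole-number counts, which are raw per the file headers, for every pair of 3' UTR transcript identifier and read length. Since header and columns are out of line, the column with values of 15 to 41 was taken as the length. The submitters' processing notes name Bowtie 0.12.7, bedtools 2.10.0 and CASAVA. The sources used here do not give the genome build, annotation, strand or handling of reads with several matches, so a read may count at several identifiers. The series' design text gives a selection of 15 to 40 nt.

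Counts were summed as described above (Python 3.11.15, scipy 1.17.1, pandas 2.3.3, numpy 2.4.6; figures by matplotlib 3.10.9). TMM sizes relative to the unstressed library, over the 18191 identifiers with 40 or more reads, trimmed 30% of log ratios and 5% of mean levels and were checked against edgeR 4.0.16 in R 4.3.3. TMM sizes were 1.90 to 6.71 in the stressed libraries, with 1 for the unstressed library. Ratios have exact (Clopper-Pearson) 95% intervals of the conditional binomial share, and the calling rule was tested on simulated data. These intervals hold counting error alone, as reads were amplified and are not separate molecules.

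Named loci are the 10 with most reads, the 2 higher and 2 lower ones whose interval stays farthest from a ratio of 1 in each of 5 comparisons, and the 2 on each side of the threshold. The loci and the rules were chosen with earlier results of these data known. Gene lists by description were not run, since no identifier could be joined to a description. Alternatives were other scalings, thresholds, filters and lengths, 1 identifier per gene and halved counts.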

Additional observations from a re-analysis of the deposited data

Results flagged for a closer look

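Cold was opposite in direction to water heat and to salt in the summed level of the 2553 loci under TMM scaling, and this difference between stresses was not tested. Relative to the unstressed library the sums were 1.28 and 1.17 in cold (6 h and 24 h), 0.921 and 0.782 in water heat (1 h and 3 h), and 0.761 under salt. Each value is from 1 library, and all 5 share the unstressed library.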

How the results depend on the processing

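The number of loci was 690 with a 24 nt share of 80% or more, 4245 with 60% or more, 1677 with 200 or more reads, and 2406 to 2585 with each library left out in turn.

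With total scaling the counts of higher and lower loci were 2059 and 0 in cold, 1120 and 0 in air heat, 566 and 1 in water heat, 1477 and 1 under salt, and 110 and 4 in cold over heat. It gave 126 higher for cold at 24 h over 6 h, 181 for air heat at 3 h over 1 h, 52 for water heat at 3 h over 1 h, and 24 higher and 177 lower for water over air at 3 h. With an interval beyond 4-fold the higher and lower counts were 4 and 7 in cold, 6 and 6 in air heat, 0 and 9 in water heat, 2 and 13 under salt, and 3 and 0 in cold over heat. They were 27 and 44 for cold at 24 h over 6 h, 20 and 38 for air heat at 3 h over 1 h, 7 and 32 for water heat at 3 h over 1 h, and 14 and 14 at 1 h and 7 and 16 at 3 h for water over air.

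With 24 nt reads alone there were 36 higher in air heat, 21 higher in water heat, 65 higher and 44 lower under salt, 46 lower in cold over heat, and 61 higher for water heat at 3 h over 1 h. With 1 identifier per gene 9 were higher in air heat. Further alternatives were chosen after seeing the data. Counts halved gave 13 higher in cold, 8 higher in air heat and 42 lower under salt. TMM over loci not led by 24 nt gave 104 higher in cold, 182 lower under salt, 86 higher and 7 lower in cold over heat, and 128 lower for water over air at 3 h. The cause of these shifts was not tested.

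In the order salt, cold at 6 h and 24 h, air heat at 1 h and 3 h, and water heat at 1 h and 3 h, the summed level over the unstressed library was 5.17, 7.49, 10.8, 3.88, 6.09, 3.28 and 3.50 times with total scaling. Salt, air heat at 1 h and both water libraries so changed direction. With the median of ratios it was 0.732, 1.23, 1.11, 0.942, 0.992, 0.900 and 0.773 times, with air heat at 3 h changing direction. With TMM over loci not led by 24 nt it was 0.604, 1.71, 1.54, 0.928, 1.04, 0.879 and 0.665 times. With 1 identifier per gene the first 6 were 0.737, 1.23, 1.15, 0.926, 1.00 and 0.896 times.

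The 24 nt share, in the same order with the unstressed library last, was 76.5%, 74.3%, 76.4%, 73.8%, 77.3%, 77.6%, 74.7% and 69.4% for loci chosen on the other 7 libraries, and 78.3%, 76.3%, 77.2%, 75%, 78.2%, 79.3%, 76.2% and 70.8% at the median locus with 20 or more reads. With 1 identifier per gene it was 78.3% under salt, 76.3% in air heat at 1 h, and 78.9% and 76.5% in water heat. Without the 50 loci with most unstressed 21 nt reads it was 78.0% in both cold libraries, 77.1% and 79.0% in air heat, and 70.5% without stress. Without loci with only even counts it was 77.3% under salt and 78.5% in air heat at 3 h. Under each of these alternatives it was lowest in the unstressed library.

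Of 369 recomputed values, 250 kept their direction and side of the threshold or their size. Median reads per locus were 15 to 71 in stressed libraries and 8 in the unstressed one, which depth limits most. No paired analysis was possible because each condition has 1 library.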
